A study of Mus musculus with 6 samples.

Results

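The genes that carry a cell through G1 were followed in mouse astrocytes that lack the Ink4a locus and were transfected to overexpress the Notch ligand JAG1. The set held the 3 D-type cyclin genes (Ccnd1, Ccnd2 and Ccnd3), the kinase genes Cdk4 and Cdk6, the retinoblastoma gene Rb1, and the inhibitor genes Cdkn1a, Cdkn1b, Cdkn2c and Cdkn2d. They were chosen by gene symbol and were 10 of the 23282 gene rows in each library; every one of them had enough reads to be tested. Control astrocytes carried the empty vector pcDNA3.1-puro and JAG1-overexpressing astrocytes carried pcDNA3.1-JAG1-puro, with 3 RNA libraries in each group. The labels name an Ink4a -/- murine astrocyte line from brain for all 6 libraries and give the controls the genotype WT, which was read as without added JAG1, so that the missing Ink4a locus was common to both groups. The sources used here do not say whether the cells were a pool or a clone, nor whether each library stands for its own transfection, so that p-values measure only the spread between these libraries, which may be technical.

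D-type cyclins are made when growth factors are present and bind CDK4 or CDK6. The active kinases phosphorylate RB1, which then lets go of E2F factors, and these turn on the genes for DNA synthesis. INK4 proteins bind CDK4 and CDK6 and keep the cyclin out, whereas the CIP/KIP proteins p21 (Cdkn1a) and p27 (Cdkn1b) bind whole cyclin-CDK complexes, with CDK2 as their best known target. The locus missing from these cells encodes p16INK4a and ARF (Cdkn2a), and the INK4 gene Cdkn2b is its neighbor on chromosome 4.

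Reads were taken from the 3' ends of polyadenylated transcripts by the QuantSeq method, so that a longer transcript does not collect more reads. Levels are given as CPM, the reads on a gene per 1e6 reads of the TMM-normalized library (TMM is edgeR's correction for composition), and can therefore be set side by side between genes without division by length, although priming may differ between transcripts. The libraries held between 14341634 and 20489062 reads on genes, and a count of 3 reads, below which a gene was not told from 0, equaled 0.148 to 0.206 CPM. This limit and all intervals on shares of reads cover counting error only. Cdkn2a had 0, 1 and 5 reads in control replicates 1, 2 and 3, and 3, 3 and 0 reads in the JAG1-overexpressing replicates. Cdkn2b had 1 read in control replicate 1 and none in the other libraries, and Cdkn1c, the gene of the third CIP/KIP protein p57, had 1 read in all. Jag1 rose from 10.3 ± 1.18 to 14.2 ± 0.862 CPM (SD, n = 3 per group), a log2 fold change of 0.46 (adjusted p = 0.00446 in edgeR's quasi-likelihood test with Benjamini-Hochberg adjustment); the species of the insert and whether plasmid transcripts entered these counts are not given in the sources used here, so that this value need not measure the overexpression.

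Of the 10 genes, 4 rose in JAG1-overexpressing astrocytes (Ccnd1, Ccnd3, Cdkn1a and Cdkn2d), 4 fell (Ccnd2, Cdk4, Cdk6 and Cdkn1b), and Rb1 and Cdkn2c did not pass the threshold. A gene was called at an adjusted p under 0.05 in edgeR's quasi-likelihood test over all 11712 tested genes, with Benjamini-Hochberg adjustment. By this rule 55.1% of all tested genes were called, 27.4% as higher and 27.7% as lower, and the count of 8 in 10 is to be read against that background. The groups did not overlap for 8 of the 10 genes, 4 of them with all JAG1-overexpressing libraries above and 4 with all of them below the controls; over all tested genes the groups did not overlap for 62%, with 31.1% above and 30.9% below. At a change of at least 1.5-fold, 4 of the 10 genes remained (Ccnd1, Ccnd2, Ccnd3 and Cdkn2d), beside 26.5% of all tested genes. The median log2 fold change was -0.13 over the 10 genes and 0.00386 over all tested genes. In bulk RNA a change in the amount per cell and a change in the share of cells that express a gene cannot be told apart.

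**Figure D1:**
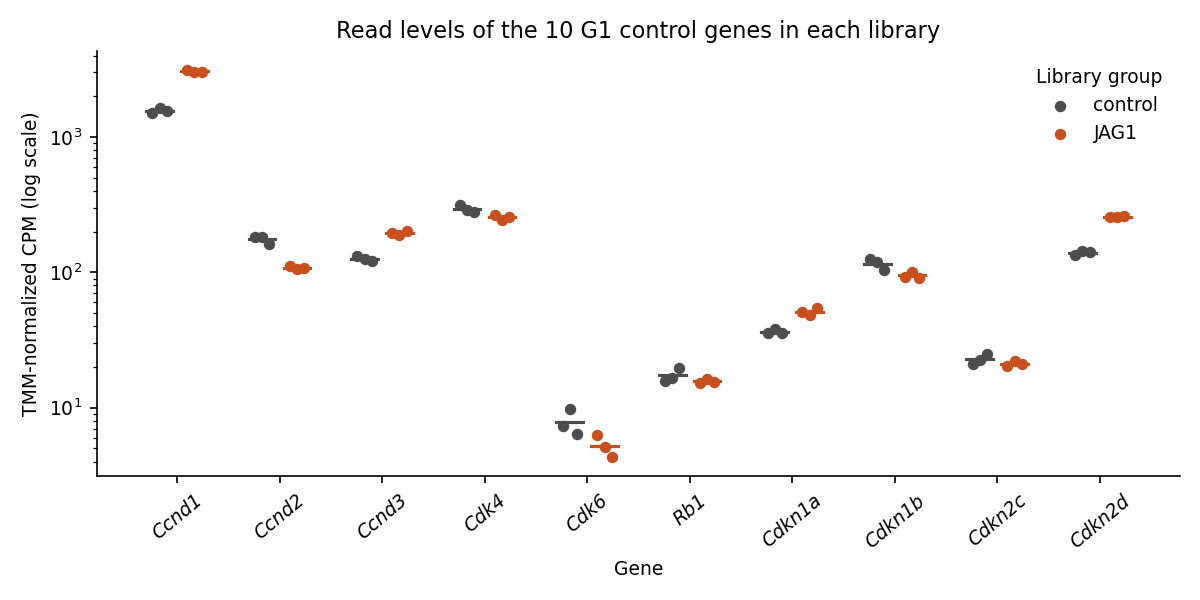
Level of each of the 10 genes in every library, as TMM-normalized CPM on a log axis; points are libraries and bars are group means (3 control and 3 JAG1-overexpressing libraries). Ccnd1 stands highest in both groups, and the points of the groups overlap for Rb1 and Cdkn2c.

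The D-type cyclins moved in opposite directions, with Ccnd1 and Ccnd3 higher and Ccnd2 lower upon JAG1 overexpression. Ccnd1, on the minus strand at chr7:144929931-144939925 of GRCm38, encodes cyclin D1, the most abundant of these messages here. It was at 1502, 1652 and 1557 CPM in control replicates 1 to 3 and at 3123, 3011 and 3034 CPM in the JAG1-overexpressing replicates. All JAG1-overexpressing libraries thus lay far above all controls, with tight groups. The rise was 1.95-fold, or 0.96 on the log2 scale (standard error 0.052, adjusted p = 5.15e-08, edgeR).

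Ccnd2 (chr6:127125162-127152193, minus strand) encodes cyclin D2. Its level was 181, 183 and 162 CPM in the controls and 112, 106 and 108 CPM in JAG1-overexpressing astrocytes, so that the highest JAG1-overexpressing library stayed below the lowest control. The log2 fold change was -0.69 (standard error 0.061, adjusted p = 2.53e-06, edgeR). Ccnd3 (chr17:47505051-47599691, plus strand), which encodes cyclin D3, went the other way, from 131, 125 and 122 CPM to 194, 188 and 201 CPM. Again no library of a group crossed into the other. For Ccnd3 the log2 fold change was 0.62 (standard error 0.053, adjusted p = 2.00e-06, edgeR).

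The D-type cyclin reads were then divided among the 3 genes, a quantity that does not depend on how libraries are scaled. Ccnd1 took 83.9 ± 0.962% of them in control and 91.0 ± 0.188% in JAG1-overexpressing astrocytes (SD, n = 3). The share of Ccnd2 went from 9.37 ± 0.600% to 3.23 ± 0.0237%, and that of Ccnd3 from 6.75 ± 0.446% to 5.79 ± 0.198%, although Ccnd3 itself was higher. The exact binomial 95% interval of a share in a single library was at most 0.775 percentage points wide. Reads on Ccnd1 per read on Ccnd2 numbered 8.30, 9.02 and 9.63 in the controls and 28.0, 28.3 and 28.2 in JAG1-overexpressing astrocytes. Summed over the 3 genes, D-type cyclin messages went from 1872 ± 77.9 to 3359 ± 63.5 CPM. These shares and sums describe the genes and were not tested.

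**Figure D2:**
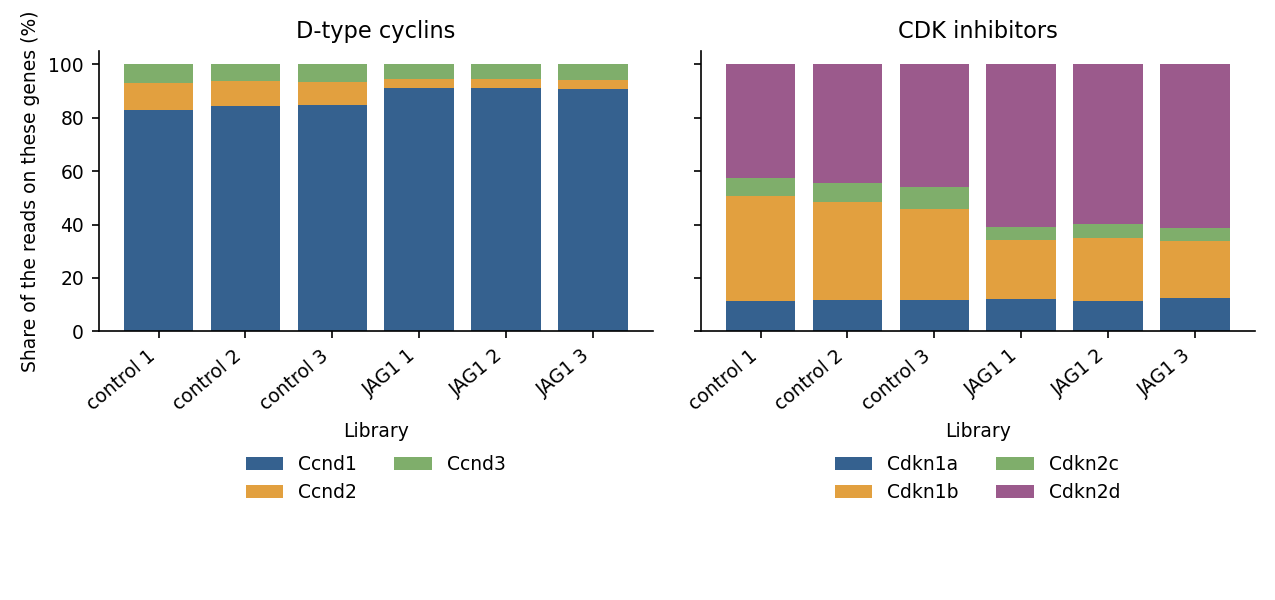
Share of reads in percent by library, for the 3 D-type cyclin genes (left) and the 4 CDK inhibitor genes (right); each bar is 1 library and sums to 100. The Ccnd2 share is near 9.37% in the controls and near 3.23% in JAG1-overexpressing astrocytes, and the Cdkn2d share goes from 44.4% to 60.7% of the inhibitor reads.

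Several of these genes meet another gene tail to tail in the annotation (GENCODE M21, GRCm38), exactly where 3' reads fall, and the strand setting used for counting is not given in the sources used here. Ccnd3 and Bysl, a ribosome assembly gene on the other strand, share 361 exonic bases at their 3' ends. Bysl rose from 177 ± 5.65 to 244 ± 7.13 CPM (log2 fold change 0.47, adjusted p = 1.32e-05, edgeR), so that reads on the shared bases may be counted for either gene and the values of Ccnd3 are uncertain to that extent. Ccnd1 shares 1100 exonic bases with Oraov1 (listed as LTO1 in the annotation), which was at 10.4 ± 0.884 and 12.6 ± 0.0991 CPM. Cdk4 shares 641 exonic bases with Tspan31, at 18.0 ± 2.96 CPM in control and 22.4 ± 1.82 CPM in JAG1-overexpressing astrocytes. Rb1 shares 488 exonic bases with Rcbtb2 and, inside its span, 408 with Lpar6. Ccnd2 also meets the antisense gene Gm43126 tail to tail and shares 372 exonic bases with it. Gm43126 was not among the tested genes, so that its level is not given. Oraov1 and Tspan31 had levels far below those of Ccnd1 and Cdk4, whereas Bysl, Rcbtb2 and Lpar6 each had a higher mean level than their partner in both groups.

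Cdk4 was slightly lower, and a larger difference in Cdk6 depended on single libraries. Cdk4 (chr10:127063534-127067920, plus strand) was at 313, 289 and 278 CPM in the controls and at 265, 243 and 258 CPM in JAG1-overexpressing astrocytes. The groups were close but did not overlap. The log2 fold change was -0.20 (standard error 0.058, adjusted p = 0.0121, edgeR), and without JAG1-overexpressing replicate 2 it was -0.16 with an adjusted p of 0.0507 from the same test. Tspan31, on the opposite strand, changed in the other direction (log2 fold change 0.31, adjusted p = 0.0467, edgeR).

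Cdk6 (chr5:3341485-3531008, plus strand) was the least abundant of the 10 genes, with 122 to 183 reads in a control library and 71 to 126 in a JAG1-overexpressing library. That was 7.36, 9.82 and 6.38 CPM in control and 6.28, 5.16 and 4.31 CPM in JAG1-overexpressing replicates, and the lowest control was barely above the highest JAG1-overexpressing library. The log2 fold change was -0.57 (standard error 0.19, adjusted p = 0.0242, edgeR). The call was lost without control replicate 2 (-0.38, adjusted p = 0.117, edgeR), without JAG1-overexpressing replicate 2 (-0.55, adjusted p = 0.0708, edgeR) and without JAG1-overexpressing replicate 3 (-0.44, adjusted p = 0.102, edgeR). Cdk4 held 97.4 ± 0.587% of the reads on the kinase genes in control and 98.0 ± 0.341% in JAG1-overexpressing astrocytes, so that Cdk4 was the main kinase message of this pair in every library. D-type cyclin reads per kinase read were 5.67, 6.56 and 6.47 in the controls and 12.7, 13.3 and 12.7 in JAG1-overexpressing astrocytes.

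RefSeq (GRCm38.p6) gave promoters, from 250 bases before to 50 after a transcript start, for 7 of the 10 genes with 10 starts; Ccnd1, Ccnd2 and Rb1 are not among them. The promoter of Cdk4 is shown because it is rich in E-boxes, sites that MYC family factors can bind. Capitals mark matches, on either strand, to CACGTG (E-box), TGGGAA (the core of the Notch cofactor RBPJ), CACNAG (N-box of HES factors), GGGCGG (GC box), TGACTCA (AP-1), TGACGTCA (CRE), TTTCGCGC or TTTGGCGC (E2F), or CATG, any 6 bases and CATG again (core of a p53 site, added after the sequences were seen). Matches may overlap.
Cdk4, chr10:127063285-127063584, plus strand: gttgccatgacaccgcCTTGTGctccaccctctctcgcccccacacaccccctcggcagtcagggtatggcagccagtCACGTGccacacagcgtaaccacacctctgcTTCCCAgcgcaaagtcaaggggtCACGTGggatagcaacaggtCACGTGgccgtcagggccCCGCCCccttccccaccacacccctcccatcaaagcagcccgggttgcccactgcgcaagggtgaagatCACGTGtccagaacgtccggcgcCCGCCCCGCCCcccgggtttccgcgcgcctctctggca

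In this Cdk4 promoter the E-box letters occurred 4 times, at positions -172, -118, -98 and -11 from the start. An E-box was found in 7.15% of all 32851 RefSeq promoters of this length. A match describes letters, and no binding was measured. Myc, named here after its values were seen, was at 5.63, 10.6 and 18.2 CPM in the controls and 10.6, 18.5 and 13.2 CPM in JAG1-overexpressing astrocytes. Its log2 fold change was 0.29 (standard error 0.33, adjusted p = 0.485, edgeR). The Myc controls thus differed among themselves more than the groups did.

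The INK4 genes of the set, Cdkn2d and Cdkn2c, behaved differently from each other. Cdkn2d (chr9:21288410-21291407, minus strand), which encodes p19INK4d, was at 134, 144 and 141 CPM in the controls and at 256, 256 and 262 CPM in JAG1-overexpressing astrocytes. No library came near the other group. This was a 1.85-fold rise, 0.88 on the log2 scale (standard error 0.050, adjusted p = 6.93e-08, edgeR), the largest after that of Ccnd1 among the 10 genes. Cdkn2c (chr4:109660876-109667189, minus strand), which encodes p18INK4c, was at 20.9, 22.4 and 25.1 CPM in control and 20.2, 21.9 and 21.1 CPM in JAG1-overexpressing replicates, and the groups overlapped. Its log2 fold change was -0.11 with a 95% interval from -0.31 to 0.085 (adjusted p = 0.310, edgeR). Cdkn2d held 86.0 ± 0.932% of the reads on this pair in control and 92.4 ± 0.299% in JAG1-overexpressing astrocytes.

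The promoters of this pair are shown because the genes encode like inhibitors and only Cdkn2d passed the test; Cdkn2c has a start farther down as well, and the upstream one is printed.
Cdkn2d, chr9:21291160-21291459, minus strand: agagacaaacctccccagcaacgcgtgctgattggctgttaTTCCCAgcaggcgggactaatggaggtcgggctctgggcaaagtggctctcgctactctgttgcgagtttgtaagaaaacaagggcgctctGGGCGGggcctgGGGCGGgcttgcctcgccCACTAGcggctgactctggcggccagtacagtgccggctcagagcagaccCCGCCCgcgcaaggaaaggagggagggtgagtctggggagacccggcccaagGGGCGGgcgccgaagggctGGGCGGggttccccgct
Cdkn2c, chr4:109666707-109667006, minus strand: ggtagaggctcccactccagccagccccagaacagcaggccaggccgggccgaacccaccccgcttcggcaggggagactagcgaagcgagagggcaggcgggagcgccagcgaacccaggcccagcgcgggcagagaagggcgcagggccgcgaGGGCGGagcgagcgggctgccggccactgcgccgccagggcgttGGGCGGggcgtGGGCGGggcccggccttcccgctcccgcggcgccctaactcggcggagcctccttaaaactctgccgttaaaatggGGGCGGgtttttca

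Both were rich in G and C, at 66.3% for Cdkn2d and 73.3% for Cdkn2c. GC box letters, present in 35.7% of all promoters, were found at 5 positions in Cdkn2d and at 4 in Cdkn2c. Only the Cdkn2d promoter of these held the RBPJ core letters, at position -209, and the N-box letters, at position -88. These letters occur in 25.6% and 42.5% of all promoters. The promoter of Cdk4, which fell, held both as well, at positions -141 and -234. So did the downstream promoter of Cdkn1a, which rose, at positions -117 and -216. None of the letters searched says whether a factor is bound.

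The CIP/KIP genes also parted. Cdkn1a (chr17:29090976-29100727, plus strand), the gene of p21 and a classical target of p53, was at 35.7, 37.9 and 35.9 CPM in the controls and at 50.8, 48.4 and 54.2 CPM in JAG1-overexpressing astrocytes. The groups were separate, with all controls lower, and the log2 fold change was 0.49 (standard error 0.070, adjusted p = 0.000123, edgeR). Cdkn1b (chr6:134920401-134925513, plus strand), the gene of p27, was at 125, 119 and 105 CPM in control and 93.1, 101 and 90.9 CPM in JAG1-overexpressing replicates. Here the groups nearly touched, and the log2 fold change was -0.29 (standard error 0.073, adjusted p = 0.00578, edgeR). Summed over this pair the level was 153 ± 10.6 CPM in control and 146 ± 2.79 CPM in JAG1-overexpressing astrocytes, while the share of Cdkn1a in it went from 24.0 ± 1.64% to 35.0 ± 2.48%.

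The upstream Cdkn1a promoter is printed because it holds the paired CATG letters of a p53 site. That pattern was added after the sequences were seen, so that its presence here was known in advance. It was found in 0.712% of all promoters.
Cdkn1a, chr17:29090729-29091028, plus strand: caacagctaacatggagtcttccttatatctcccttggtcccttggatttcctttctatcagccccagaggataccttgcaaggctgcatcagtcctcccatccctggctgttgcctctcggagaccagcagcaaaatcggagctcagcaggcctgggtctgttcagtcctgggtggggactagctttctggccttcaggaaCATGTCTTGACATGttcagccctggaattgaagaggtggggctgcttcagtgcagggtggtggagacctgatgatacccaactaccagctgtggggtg

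Those letters began at position -48 from this start. The downstream Cdkn1a promoter, which is not printed, did not hold them, and 3' reads do not tell which start was used. Trp53, the gene of p53 itself and named here after its values were seen, was at 24.0, 42.1 and 45.3 CPM in the controls. In JAG1-overexpressing astrocytes Trp53 was at 28.0, 39.3 and 34.4 CPM (log2 fold change -0.14, standard error 0.20, adjusted p = 0.586, edgeR). Its control replicate 1 was the lowest and the other controls the highest of all libraries. Mdm2, another p53 target that encodes the ligase for p53, fell (log2 fold change -0.25, adjusted p = 0.00377, edgeR). These are transcript levels, and the part of p53 in the level of Cdkn1a was not tested.

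Over the 4 inhibitor genes, the level was 315 ± 8.42 CPM in control and 425 ± 4.48 CPM in JAG1-overexpressing astrocytes. Cdkn2d made up 44.4 ± 1.73% of these reads in control and 60.7 ± 0.674% in JAG1-overexpressing astrocytes, and Cdkn1b made up 36.8 ± 2.69% and 22.3 ± 1.21%. The share of Cdkn1a differed by 0.440 percentage points between the group means. INK4 reads per CIP/KIP read numbered 0.968, 1.06 and 1.18 in the controls and 1.92, 1.86 and 1.95 in JAG1-overexpressing astrocytes, so that the pairs were nearly even in control and INK4 reads led in each JAG1-overexpressing library. D-type cyclin reads per inhibitor read were 5.94 ± 0.165 in control and 7.90 ± 0.228 in JAG1-overexpressing astrocytes.

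**Figure D3:**
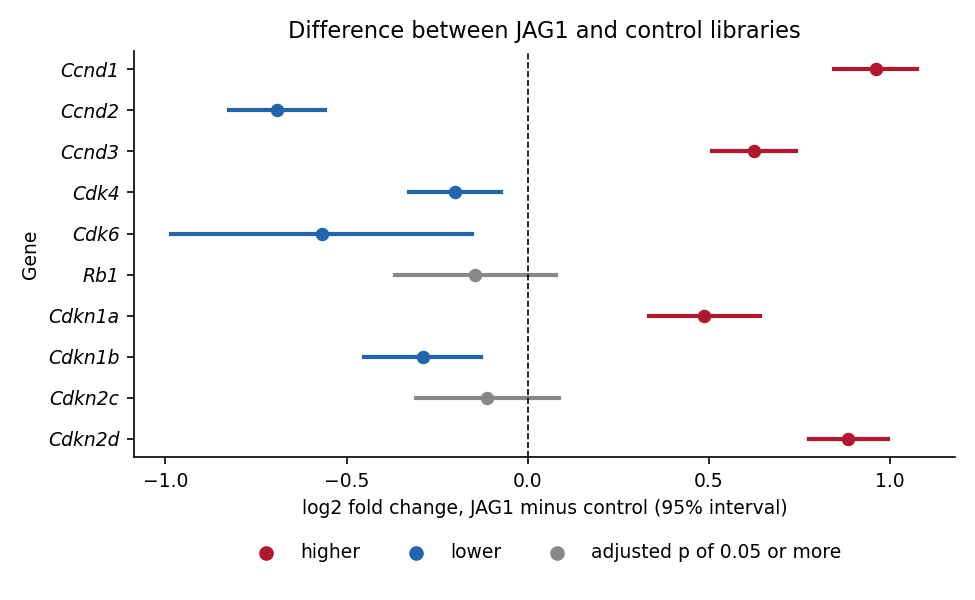
Log2 fold change of each of the 10 genes, JAG1 minus control, from edgeR's quasi-likelihood fit; bars are 95% intervals and color gives the call at an adjusted p under 0.05. The interval of Cdk6 is the widest, from -0.98 to -0.15, and those of Rb1 and Cdkn2c include 0.

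Rb1 (chr14:73183673-73325822, minus strand), the gene of the pocket protein that the D-cyclin kinases act on, was at 15.8, 16.6 and 19.6 CPM in control and 15.4, 16.3 and 15.4 CPM in JAG1-overexpressing replicates. The groups overlapped, with control replicate 3 standing above the rest. The log2 fold change was -0.14 with a 95% interval from -0.37 to 0.078 (adjusted p = 0.246, edgeR). Rbl1, the gene of the related protein p107, rose from 68.4 ± 1.29 to 82.5 ± 6.49 CPM (log2 fold change 0.27, adjusted p = 0.00580, edgeR) and held the largest share of the pocket protein reads, 64.7 ± 1.82% in control and 68.1 ± 2.11% in JAG1-overexpressing astrocytes.

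The order of the 10 levels differed between the groups. In control astrocytes it ran from Ccnd1 through Cdk4, Ccnd2, Cdkn2d, Ccnd3, Cdkn1b, Cdkn1a, Cdkn2c and Rb1 to Cdk6, and neighbors in this order did not overlap except Ccnd3 and Cdkn1b, of which Ccnd3 was higher in each library. In JAG1-overexpressing astrocytes Cdkn2d stood beside Cdk4, with means of 258 and 255 CPM that overlapped, Ccnd3 stood above Ccnd2, and the places from Cdkn1b down were as in control. Ccnd1 was above 99.5% of the tested genes in control and above 99.9% in JAG1-overexpressing astrocytes, whereas Cdk6 was above 29.0% and 23.7% of them.

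Genes around this switch were counted by lists written for it. The median log2 fold change of the tested genes was 0.60 on chromosome 19 and -0.53 on chromosome 15, where none of the 10 genes lies. The listed genes Hells, Fen1, Ddb1, Fosl1 and Men1 are on chromosome 19, and Rbx1, Skp2, Fbxo4 and Myc on chromosome 15; the part of these shifts in their values was not tested. Of the 10 E2F and DP genes, a family that holds the factors bound by RB1, 6 rose and 1 fell, with a median log2 fold change of 0.30 (70% called, against 55.1% of all tested genes). Leaving out 1 library at a time gave 5 to 8 called genes of this list. E2f2 rose from 7.99 ± 1.54 to 16.7 ± 0.422 CPM, a log2 fold change of 1.07 (adjusted p = 3.31e-05, edgeR). E2f8, a repressor of the family, rose by 0.64 and E2f4 by 0.41 on the log2 scale (adjusted p = 0.00643 and 0.00179, edgeR). E2f8 went from 56.3 ± 15.8 to 87.6 ± 6.33 CPM, with control replicate 1 at 38.3 CPM and the other controls at 63.0 and 67.7 CPM. E2f6, a repressor that RB1 does not bind, fell by 0.45 on the log2 scale (adjusted p = 0.000284, edgeR).

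The E2F target genes for DNA synthesis did not share a direction: of 30 tested, 8 rose, 6 fell and 16 were not called, with a median log2 fold change of 0.00217 and 46.7% called. Without Hells and Fen1, 6 rose and 6 fell, and the median was -0.020. Rrm2, a subunit of ribonucleotide reductase, rose most (61.4 ± 1.81 to 121 ± 2.74 CPM, log2 fold change 0.98), followed by the chromatin remodeler Hells (0.88) and the flap nuclease Fen1 (0.56). Fen1 went from 184 ± 34.6 to 272 ± 14.5 CPM, with control replicate 1 at 144 CPM and the other controls at 204 and 205 CPM. Rfc3, a clamp loader subunit, fell by 0.50 on the log2 scale and the helicase subunit Mcm7 by 0.23. The adjusted p of these genes was at most 0.00580 (edgeR). Among 10 genes of mitosis, 6 rose and 2 fell (80% called, against 55.1% of all tested genes). Aurkb, Aurka and Ccnb2 had the largest rises of that list, by log2 fold changes of 0.66, 0.54 and 0.37, and Bub1, a spindle checkpoint kinase, fell from 38.7 ± 1.09 to 19.7 ± 0.792 CPM (adjusted p = 7.81e-07, edgeR). Top2a fell by 0.18 on the log2 scale (adjusted p = 0.0106, edgeR). Mki67, named here after its values were seen, was not called (log2 fold change -0.069, adjusted p = 0.481, edgeR). With 1 library left out at a time, 6 to 8 genes of that list were called.

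Among the 7 genes of cyclins E and A, CDK2 and the CDC25 phosphatases, 3 rose and 1 fell; 57.1% were called, close to the 55.1% of all tested genes. Cdk2, the partner of cyclins E and A, rose from 37.1 ± 4.52 to 51.6 ± 1.42 CPM (log2 fold change 0.47, adjusted p = 0.000844, edgeR), and the cyclin gene Ccne2 rose by 0.30 on the log2 scale. The phosphatase genes Cdc25b, which rose by 0.36, and Cdc25c, which fell by 0.29, are known mainly for entry into mitosis and gave the other calls of the list. Without JAG1-overexpressing replicate 3, 2 of these 7 genes were called in place of 4. Of the 3 genes of the CDK-activating kinase, which phosphorylates CDK4 and CDK6 on the T-loop, Ccnh and Mnat1 rose by 0.36 and 0.21 (adjusted p = 0.00187 and 0.0390, edgeR). That was 66.7% called, beside 55.1% of all tested genes. In that list 1 gene was called without control replicate 1, without JAG1-overexpressing replicate 2 or without JAG1-overexpressing replicate 3.

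Of 15 genes for the turnover of D-type cyclins and p27, 3 rose, 6 fell and 6 were not called; 60% were called, close to the 55.1% of all tested genes. Cryab, a chaperone that acts with the ligase subunit FBXO4 on cyclin D1, fell from 284 ± 3.39 to 83.7 ± 3.37 CPM, a log2 fold change of -1.76 (adjusted p = 5.28e-10, edgeR). Usp2, the gene of a deubiquitinase of cyclin D1, fell by 1.11 and the ligase subunit Rbx1 by 0.50 on the log2 scale (adjusted p = 0.000203 and 0.000235, edgeR). The CUL4 adaptor Ddb1, the scaffold Cul1 and the substrate receptor Dcaf1 rose by 0.47, 0.29 and 0.24 (adjusted p at most 0.0177, edgeR). These are transcript levels, and the stability of the proteins was not measured.

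Of 20 factors known to act on D-type cyclin or CIP/KIP genes, 16 were tested, and 6 rose and 4 fell; 62.5% were called, beside 55.1% of all tested genes. Without the genes on chromosomes 15 and 19, 4 rose and 4 fell of 13, and the median log2 fold change was -0.14 in place of 0.092. Hes1, a Notch target and a repressor that can act on Cdkn1b, rose from 16.7 ± 1.49 to 62.8 ± 3.73 CPM, a log2 fold change of 1.91 (adjusted p = 1.15e-08, edgeR). Fosl1, an AP-1 subunit, rose by 1.07 and Stat3, which can act on Ccnd1, by 0.88 on the log2 scale (adjusted p = 1.97e-07 and 2.92e-06, edgeR). Klf4, Rbpj and Mdm2 had the largest falls of that list, by 0.30, 0.28 and 0.25 on the log2 scale (adjusted p at most 0.00794, edgeR). The part of any of these genes in the levels of the D-type cyclins and inhibitors was not tested.

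**Figure D4:**
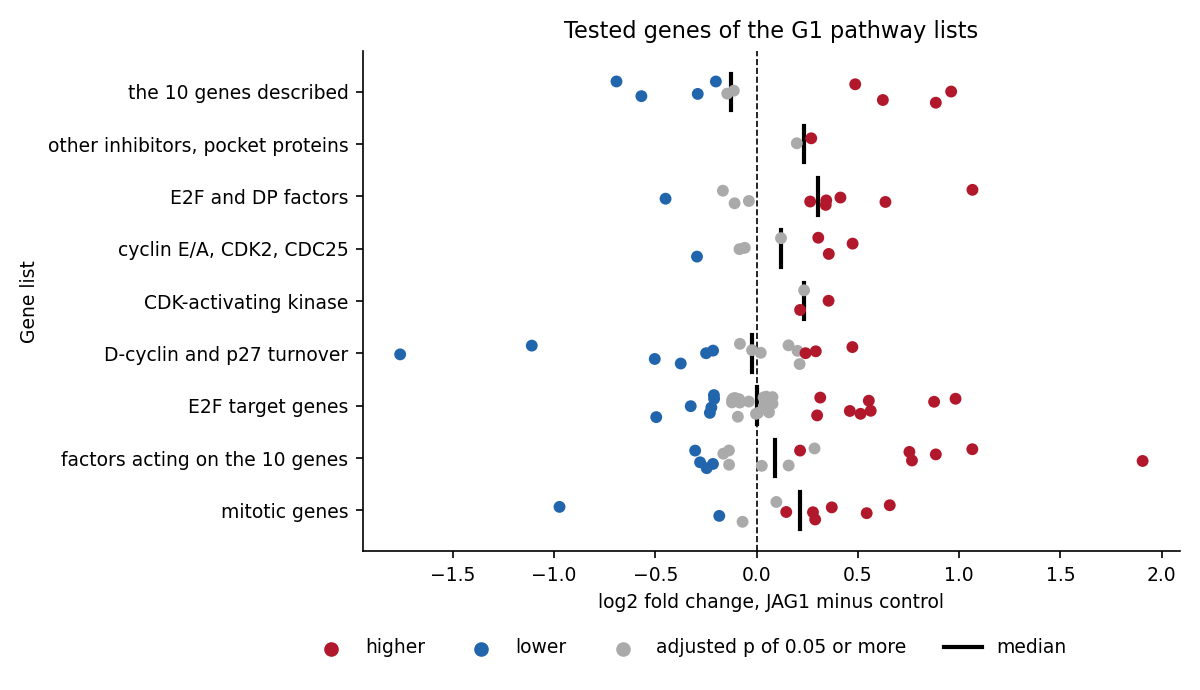
Log2 fold change, JAG1 minus control, of the tested genes of each G1 pathway list; points are genes, colored by call, and black bars are list medians. The E2F and DP factors have a median of 0.30 and the E2F target genes one of 0.00217.

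The astrocyte label was checked against markers. Gfap and Aqp4 had no read in any library, and Slc1a3 and Slc1a2 had at most 2. The 6 tested astrocyte markers of 10 were all called lower in JAG1-overexpressing astrocytes, beside 27.7% of all tested genes. The summed level of the markers was 123 to 137 CPM there against 337 to 398 CPM in control. Most of this sum was Sox9 and Gja1, and Gja1 went from 151 ± 35.8 to 96.7 ± 8.65 CPM. Aldh1l1, Aldoc and S100b had group means of at most 2.98 CPM. Sox9 fell most, from 181 ± 4.64 to 18.0 ± 1.25 CPM. Of 6 neuron markers, Tubb3 and Stmn2 fell and Map2 rose, with a summed level of 100.3 to 110 CPM in control and 58.6 to 61.7 CPM in JAG1-overexpressing astrocytes, and Snap25 and Syt1 were at 0. Of 5 fibroblast markers, Col1a1 and Dcn fell, Col1a2 rose from 3.35 ± 0.528 to 50.7 ± 6.20 CPM (log2 fold change 3.92) and Lum was at 0; the sums were 242 to 247 and 196 to 231 CPM. Of 6 microglia markers, Tmem119 fell and Cx3cr1 rose, with sums of at most 3.97 CPM, and Aif1, P2ry12 and Itgam had at most 3 reads in a library. Sums were at most 1.19 CPM for 6 oligodendrocyte lineage markers, of which Mog, Olig1 and Sox10 were at 0 and none was called, and at most 0.322 CPM for 4 endothelial markers, of which Tek was at 0 and none was tested. The part of these marker differences in the levels of the G1 genes was not tested.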

How the data were processed

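RNA of 3 control and 3 JAG1-overexpressing libraries of Ink4a -/- mouse astrocytes was sequenced after preparation with the QuantSeq 3' kit. The authors deposited, for each library, raw read counts per gene without normalization and log2 values of a read count that they had normalized in a way not given in the sources used here. The submitters' processing notes name Bowtie2, bedtools, edgeR and the builds GRCm38 and mm10, without versions or roles. Annotation was taken from GENCODE M21 and RefSeq of GRCm38. Counts were analyzed in R 4.3.3 with edgeR 4.0.16: rows with few reads were removed with filterByExpr (minimum count 10), so that 11712 of 23282 were tested, followed by TMM normalization, and the quasi-likelihood test on group, two-sided, with Benjamini-Hochberg adjustment and a threshold of 0.05. Standard errors came from the quasi-likelihood F statistic. An exact permutation test with 3 against 3 libraries cannot go below 0.1 and was not used. Shares carry exact (Clopper-Pearson) 95% intervals. The fit was tested on simulated data.

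The genes and lists were chosen with earlier results of these data known. Named genes were the 10 members, Jag1, Cdkn2a and Cdkn2b, genes that overlap a member, up to 3 called genes with the largest rise and fall of each pathway list, and up to 3 genes most correlated with a called member of at least 10 CPM; others are marked where named, and some genes that the rule selects are not reported here. Dcaf1 was found under its synonym Vprbp. Alternatives were DESeq2 1.42.0, library size alone, no filter, a mean count of 10, a replicate block, limma-voom (limma 3.58.1), the deposited log2 values, a limit of 1.5-fold and each library left out. No protein sequences were used here.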

Additional observations from a re-analysis of the deposited data

How the results depend on the processing

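The calls of the 10 genes were stable under the 7 other analyses of all 6 libraries: 8 of 10 genes were called with DESeq2, library size alone, no filter, a mean count of 10, the replicate block, limma-voom and the deposited log2 values. Of 130 values of single members under the 13 alternative fits, none changed direction and 4 lost the threshold, all named above for Cdk4 and Cdk6. A limit of 1.5-fold left 3106 called genes in place of 6458 and 4 called members in place of 8. With 1 library left out at a time, 5516 to 6600 genes and 6 to 8 members were called, the lowest member count being that without JAG1-overexpressing replicate 2. The same runs called 1 to 2 of the other inhibitor and pocket protein genes, 2 to 5 genes of cyclins E and A, CDK2 and the CDC25 phosphatases and 1 to 3 of the CDK-activating kinase; the cause was not tested, other than that fewer libraries entered. In the replicate block, 6711 genes were called. Whether the replicate numbers pair the libraries is not given in the sources used here. The deviations of equally numbered libraries correlated at 0.143, 0.0638 and 0.119 across genes. Those of unlike number correlated between -0.137 and 0.00723, so that each library correlated best with its own number. The main fit did not use a pairing. The rise in the Ccnd1 share of D-type cyclin reads, 7.10 percentage points, ran from 6.55 to 7.45. Leaving out the genes on chromosomes 15 and 19, chosen after seeing the data, left 6 of 11 turnover genes called, 2 higher and 4 lower. Of the 10 genes, Cdk6 had the fewest reads, 71 to 183 in a library.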

Other observations

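The medians of the tested genes on the chromosomes that hold the 10 genes lay between -0.017 and 0.029 on the log2 scale, whereas those of chromosomes 19 and 15, which hold none of them, were 0.60 and -0.53. The members that share a chromosome had the same direction in each case: Ccnd3 and Cdkn1a on chromosome 17 rose, and Ccnd2 and Cdkn1b on chromosome 6 fell. Each pair lies more than 1 Mb apart, and a shift shared by a wider region was not tested. Within 1 Mb of Ccnd1, 6 other genes were tested, of which 3 fell and none rose, with a median of -0.29. Around Cdkn2d there were 53, of which 11 rose and 16 fell, with a median of -0.050. Within the same distance of Cdkn1b, 7 of 11 tested genes fell and 2 rose, with a median of -0.27. Over all tested genes, 27.4% were called as higher and 27.7% as lower. These counts of neighbors were not tested. Cdkn2b and Cdkn2a had 3 tested neighbors, of which 1 fell.

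The genes whose log2 CPM followed a member most closely over the 6 libraries were listed as a description, since a correlation over 6 libraries in 2 groups mostly repeats the difference between the groups. Ccnd3 was followed most closely by Bysl (Pearson's r = 0.9997), with which it shares exonic bases. Meis2 and Cdc37l1 were among the genes that followed Ccnd1 closely, and 206 of 7808 genes had r above 0.99 with it. Cdkn2d was followed by Map2, Map2k3 and 1500011B03Rik, with 239 genes above 0.99. Cdkn1a was followed by Tk1, Aurka and Klc2, of which Tk1 and Aurka are genes of the S phase and of mitosis. Ccnd2 was followed by Lars, AI987944 and Chd4. For Cdk4 and Cdkn1b, whose changes were smaller, 6 genes each were above 0.99.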
